A study of Homo sapiens with 4 samples.

Results

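The expressed members of the ZNF group of zinc finger genes were compared between Sorafenib-treated control and *USP22*-targeted HepG2 cells. The 309 genes described here were chosen by symbol (ZNF, a number and at most 1 letter) and selected on a mean of at least 100 raw counts over the 4 libraries. They came from 534 ZNF genes among the 28278 genes of the table, and the other 225 had a mean under 100 counts, 125 of them listed at 0 in all 4 libraries. HepG2, a human liver cancer cell line, had been infected with lentiviruses carrying Cas9 with either a control guide RNA or a *USP22* guide RNA, and the resulting cell populations, which were not single clones, were all treated with Sorafenib, a multikinase inhibitor, for 24 h before polyA RNA was sequenced. Each group, control and sgUSP22, held 2 libraries. No library without Sorafenib was analysed, so both groups share the drug, Cas9 and the viral infection. Nothing in the labels says that the 2 libraries of a group came from separate cultures, so the p-values measure only the spread between these libraries.

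Most ZNF genes encode proteins with tandem C2H2 fingers, small folds held together by a zinc ion that each read a few bases of DNA. Many of them also carry a KRAB box at the amino terminus, which binds the corepressor TRIM28 and through it brings histone methylation by SETDB1 and HP1 proteins to the bound site. Such KRAB zinc finger genes are grouped in large arrays of related copies, above all on chromosome 19, and many of their products bind transposable elements. A smaller number of ZNF proteins bind RNA, ribosomes or SUMO, or activate transcription. USP22 is the ubiquitin hydrolase of the SAGA coactivator complex and removes ubiquitin from histone H2B as well as from other proteins.

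The libraries held between 62030307 and 64728272 counts, and the replicates did not agree within sampling noise (mean chi-square over genes of 8.11 for control and 8.51 for sgUSP22). The targeted transcript was not lower in the sgUSP22 libraries: the *USP22* counts were 16450 and 16537 in control and 20279 and 20368 in sgUSP22, a log2 fold change of 0.22 (SE 0.0341, edgeR adjusted p = 0.000394). The count of a transcript does not check the protein, and every direction below follows the label. The paper reports Western blots that checked the knockout in its cell populations, which the counts cannot assess. Of 12 genes that mark hepatocyte-derived cells, 0 passed the filter on low counts and 7, *ALB*, *APOA1*, *APOB* and *TTR* among them, were listed at 0 in all 4 libraries. The highest count among the other 5 was 13, for *TF*, so the defining transcripts of HepG2 were absent or nearly absent from every library, and each result below describes cells known only by their label.

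The first sequences shown are the promoters of 4 KRAB zinc finger genes of chromosome 19 that are among the 5 with the highest fold changes in sgUSP22. Each runs 5′ to 3′ on the strand of its gene from 250 bases before to 50 bases after the RefSeq start in GRCh38.p14. The positions are chr19:11766750-11767049 on the plus strand for *ZNF441*, chr19:12294834-12295133 on the minus strand for *ZNF44*, chr19:12162846-12163145 on the plus strand for *ZNF136*, and chr19:23687163-23687462 on the minus strand for *ZNF675*. Capitals mark matches on either strand to 7 short motifs: GGGCGG (SP1), GCGCATGC (NRF1), CCGGAAG (ETS), GATGGCGG (YY1), ACTACAAT (ZNF143), CCAAT (the CCAAT box) and TATAAA (the TATA box), and where matches overlap the capitals run together.
ZNF441: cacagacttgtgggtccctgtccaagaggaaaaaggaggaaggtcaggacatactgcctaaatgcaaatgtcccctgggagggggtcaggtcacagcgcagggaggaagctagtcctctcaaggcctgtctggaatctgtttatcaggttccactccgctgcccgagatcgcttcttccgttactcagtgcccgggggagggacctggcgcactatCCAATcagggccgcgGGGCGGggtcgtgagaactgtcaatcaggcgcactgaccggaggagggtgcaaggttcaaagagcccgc
ZNF44: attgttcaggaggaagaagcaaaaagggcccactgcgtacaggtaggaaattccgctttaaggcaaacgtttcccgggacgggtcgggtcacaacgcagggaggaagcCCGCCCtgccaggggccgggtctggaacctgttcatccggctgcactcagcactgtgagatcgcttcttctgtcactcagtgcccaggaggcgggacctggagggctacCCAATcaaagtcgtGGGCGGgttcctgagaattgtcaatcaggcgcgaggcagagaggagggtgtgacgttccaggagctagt
ZNF136: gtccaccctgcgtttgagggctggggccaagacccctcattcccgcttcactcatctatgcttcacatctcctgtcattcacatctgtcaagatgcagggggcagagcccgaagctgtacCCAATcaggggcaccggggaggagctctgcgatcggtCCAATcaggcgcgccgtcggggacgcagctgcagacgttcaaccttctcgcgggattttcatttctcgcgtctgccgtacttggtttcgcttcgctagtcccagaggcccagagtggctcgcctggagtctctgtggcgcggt
ZNF675: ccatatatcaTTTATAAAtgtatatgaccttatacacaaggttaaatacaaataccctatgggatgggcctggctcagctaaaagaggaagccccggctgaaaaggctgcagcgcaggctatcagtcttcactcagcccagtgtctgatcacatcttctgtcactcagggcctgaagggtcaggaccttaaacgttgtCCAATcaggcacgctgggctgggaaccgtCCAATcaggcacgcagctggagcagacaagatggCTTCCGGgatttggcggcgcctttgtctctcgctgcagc

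All 4 promoters hold at least 1 CCAAT box, those of *ZNF441* and *ZNF44* also hold the SP1 motif, and the promoter of *ZNF675* alone of the 4 holds the ETS motif and the TATA box. For comparison, the next sequence is the promoter of *ZNF688*, a KRAB zinc finger gene of chromosome 16 that was lower in sgUSP22 (chr16:30571665-30571964 on the minus strand), marked in the same way.
ZNF688: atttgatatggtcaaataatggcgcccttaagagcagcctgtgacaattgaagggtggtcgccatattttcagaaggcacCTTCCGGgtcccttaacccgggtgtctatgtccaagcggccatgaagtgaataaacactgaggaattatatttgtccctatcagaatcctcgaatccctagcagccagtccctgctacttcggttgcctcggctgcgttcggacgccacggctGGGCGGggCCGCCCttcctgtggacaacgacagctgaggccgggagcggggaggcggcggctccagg

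It holds an ETS motif and SP1 motifs and no CCAAT box. Of the 4 genes called lower with a promoter in the RefSeq table, 2 (*ZNF605* and *ZNF385B*) hold a CCAAT box. Among the 63 promoters of genes called higher, 46.0% hold it. These matches are descriptions of letters, not of bound sites, and no difference in calls between genes with and without a motif was tested. Of the 309 genes, 257 had a promoter in the RefSeq table. The ETS motif was found in 40.1% of these, against 18.2% of the 11359 promoters of tested genes and 10.7% of all 27305 promoters. Among those with the ETS motif 27.2% were called higher in sgUSP22, and among those without it 22.7%. The CCAAT box was found in 45.9% of the ZNF promoters, 36.4% of the promoters of tested genes and 35.7% of all promoters, and 24.6% of ZNF genes with it and 24.5% without it were called higher. The SP1 motif was found in 65.4% of the ZNF promoters, against 68.7% and 44.6%, and 37 of 168 ZNF genes with it and 26 of 89 without it were called higher. The ZNF143 motif was found in 2.72%, against 0.863% and 0.67%, and the TATA box in 2.33%, against 5.97% of the promoters of tested genes. The NRF1 motif (6.61%, against 5.33% and 3.27%) and the YY1 motif (3.89%, against 4.44% and 2.44%) were found at shares closer to those of tested genes. Among ZNF genes with the NRF1, YY1, ZNF143 and TATA box motifs, 3 of 17, 3 of 10, 3 of 7 and 1 of 6 were called higher.

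ZNF transcripts were, as a group, shifted towards higher levels in sgUSP22, with a wide spread between genes. Calls required a change of at least 1.5-fold and a Benjamini-Hochberg adjusted p-value below 0.05, taken over the 15150 genes that the quasi-likelihood test of edgeR covered. Of the 309 ZNF genes, all of which passed the filter on low counts, 74 (23.9%) were called higher and 6 (1.94%) were called lower in sgUSP22. Over all tested genes, 8.88% were called higher and 7.25% were called lower. Without the fold threshold, 147 ZNF genes were higher and 34 were lower, against 26.8% and 25.8% of all tested genes. Of these, 73 that were higher and 28 that were lower changed by less than 1.5-fold, and 128 ZNF genes did not pass the adjusted p-value. Both sgUSP22 libraries lay above both control libraries in CPM (counts scaled to library size, with TMM factors) for 195 ZNF genes and below them for 63, while the groups overlapped for 51. The same separation was found for 38.3% of all tested genes upwards and 37.6% downwards. In these bulk samples, a change in the make-up of the cell population and a change in RNA per cell cannot be told apart.

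The log2 fold changes of the 309 genes ran from −0.94 to 3.06, with a lower quartile of −0.04, a median of 0.28 and an upper quartile of 0.58. For the 15150 tested genes the quartiles were −0.28 and 0.30 around a median of 0.00. The upward shift was found in most ZNF genes rather than in a few, since 72.2% had a log2 fold change above 0, against 50.1% of all tested genes. The SD of the log2 fold changes was 0.545 over the ZNF genes, against a median SE of 0.11 for a single gene and a median difference of 0.0982 on the log2 scale between the 2 libraries of a group. Of the 74 genes called higher, 41 changed by less than 2-fold, and the median fold change of the 74 was 1.90. None of the 309 genes was 2-fold or more lower, and in 26 ZNF genes every sgUSP22 library was at least 2-fold above every control library. Together the 309 genes took 0.566% and 0.564% of all counts in the control libraries, and 0.678% and 0.697% in the sgUSP22 libraries. The median CPM over the genes was 10.1 and 10.5 in control and 11.5 and 11.7 in sgUSP22.

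**Figure D1:**
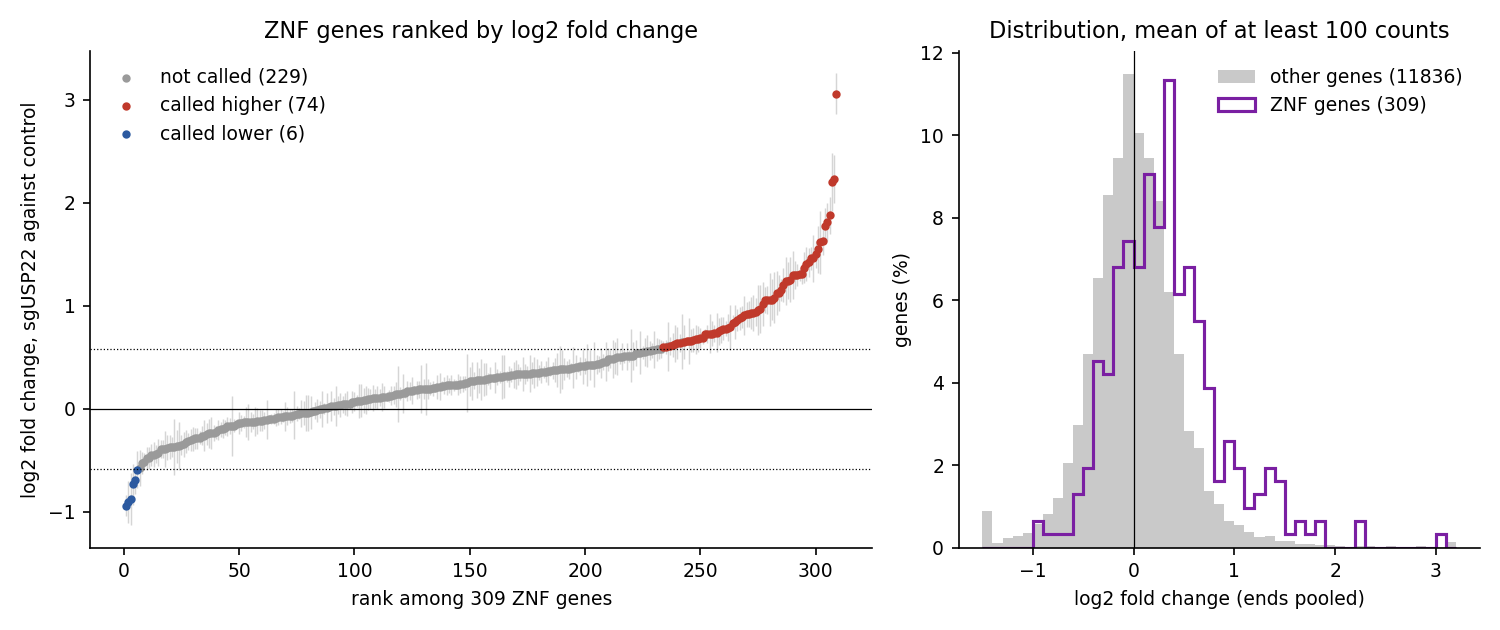
Left, the log2 fold change (sgUSP22 against control) of each of the 309 ZNF genes in rank order, with bars of 1 SE, dotted lines at a 1.5-fold change and colours for the 74 genes called higher and the 6 called lower. Right, the share of genes per bin of 0.1 in log2 fold change for the ZNF genes (line) and for 11836 other genes with a mean of at least 100 counts (grey, with values beyond the axis pooled in the end bins), where the ZNF genes are displaced to the right.

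The selection on a mean count let in some genes through the group in which they were high. A mean under 100 counts in control was found for 16 of the 309 genes, of which 13 were called higher. A mean under 100 counts in sgUSP22 was found for 2, of which 1 was called lower. *ZNF441*, *ZNF467*, *ZNF675*, *ZNF543* and *ZNF780B*, which had some of the highest fold changes, were among the 16. They passed the limit only through sgUSP22. Among the 291 genes with a mean of at least 100 counts in both groups, 61 were called higher and 5 lower. Just inside the limit, *ZNF713* had 93 and 128 counts in control and 79 and 101 in sgUSP22, and *ZNF565* had 101 and 82 in control and 112 and 109 in sgUSP22. Just outside it, *ZNF430* had 33 and 65 counts in control and 126 and 175 in sgUSP22, *ZNF782* had 66 and 63 against 130 and 134, and *ZNF311* had 93 and 48 against 112 and 102. *ZNF675*, described below, was the other gene just inside the limit. Of the ZNF genes with a mean under 100 counts, 57 were tested, with 16 called higher, 4 called lower and a median log2 fold change of 0.54.

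The highest fold change was that of *ZNF441*, a KRAB zinc finger gene at chr19:11767000-11784078. Its counts were 43 and 44 in control and 356 and 412 in sgUSP22. The groups were far apart, at 0.705 ± 5.84e-05 CPM in control and 5.90 ± 0.682 CPM in sgUSP22 (SD, n = 2 each), and the log2 fold change was 3.06 (SE 0.196, adjusted p = 1.43e-06 from edgeR). *ZNF675*, whose product binds the signalling adaptor TRAF6, had 38 and 33 counts in control and 147 and 199 in sgUSP22. It rose 4.61-fold (SE 0.281 on the log2 scale, adjusted p = 0.000117 from edgeR), and it lies at chr19:23525631-23687220. *ZNF44* had 134 and 103 counts in control and 452 and 469 in sgUSP22, a log2 fold change of 1.88 (SE 0.177, adjusted p = 1.63e-05 from edgeR). *ZNF136* had 148 and 111 counts against 522 and 440, a log2 fold change of 1.81 (SE 0.185, adjusted p = 2.79e-05 from edgeR). These last 2 genes lie within the same stretch of the short arm as *ZNF441*, at chr19:12224686-12294883 and chr19:12163064-12189871.

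Also among the 8 genes with the highest fold changes, *ZNF543* had 93 and 97 counts in control and 334 and 354 in sgUSP22, and *ZNF484*, on chromosome 9, had 189 and 193 counts in control and 625 and 620 in sgUSP22. The libraries of a group lay close together in both genes, and the log2 fold changes were 1.78 (SE 0.172) and 1.63 (SE 0.129). *ZNF780B* rose from 65 and 37 counts to 183 and 149 counts (log2 fold change 1.62, SE 0.307, adjusted p = 0.0015 from edgeR). Its control libraries were the furthest apart among these 8 genes. *ZNF467*, which has been studied in the choice of marrow stromal cells between bone and fat, was the only one of the 8 without a KRAB match. It had 57 and 49 counts in control and 231 and 296 in sgUSP22, a log2 fold change of 2.23 (SE 0.231, adjusted p = 3.06e-05 from edgeR), and it lies on chromosome 7 at chr7:149764182-149773588.

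Only 6 ZNF genes were called lower, each by less than 2-fold, and none of them lies on chromosome 19. *ZNF251* had 933 and 1046 counts in control and 578 and 511 in sgUSP22 (log2 fold change −0.94, SE 0.106, adjusted p = 5.36e-05 from edgeR). Its groups were clearly separated and it was the only gene of the 6 that also passed a test against a 1.5-fold change. *ZNF488*, a partner of OLIG2 in oligodendrocyte development, had 337 and 266 counts in control and 145 and 195 in sgUSP22 (log2 fold change −0.90, SE 0.207, adjusted p = 0.00449 from edgeR). *ZNF511* had 995 and 1097 counts in control and 786 and 580 in sgUSP22 (log2 fold change −0.69, SE 0.132, adjusted p = 0.00152 from edgeR). Both lie on chromosome 10 beyond 40 Mb, where the median log2 fold change of the 5 ZNF genes was −0.45, against 0.19 for the 5 ZNF genes below 40 Mb, of which 1 (*ZNF37A*, log2 fold change 1.15) was called higher. The 551 other tested genes of the whole chromosome were also lower, with a median of −0.33, 6.72% called higher and 24.0% called lower.

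The other 3 genes called lower had at most 243 counts in any library. *ZNF605* had 148 and 148 counts in control and 101 and 69 in sgUSP22 (log2 fold change −0.88, SE 0.252), *ZNF385B*, which encodes a p53-binding protein, had 182 and 217 against 135 and 118 (log2 fold change −0.73, SE 0.198), and *ZNF688* had 211 and 243 against 156 and 162 (log2 fold change −0.59, SE 0.178). Their adjusted p-values from edgeR were 0.0144, 0.0106 and 0.0184. The counting can have mixed some of these genes with their neighbours: *ZNF605* shares 239 exon bases with *CHFR* on the same strand and *ZNF511* shares 805 exon bases with *TUBGCP2* on the opposite strand, and the strand setting of the counts is not given in the sources used here. Without replicate 2 of sgUSP22, 4 ZNF genes were called lower and 2 of them, *ZNF251* and *ZNF488*, were among these 6. Without replicate 2 of control 4 were called lower, all of them among the 6, and DESeq2 called 3 lower, *ZNF251*, *ZNF488* and *ZNF511*. Without replicate 2 of sgUSP22 the log2 fold changes were −0.64 for *ZNF605*, −0.65 for *ZNF385B* and −0.63 for *ZNF688*, and *ZNF385B* (−0.62) and *ZNF688* (−0.50) also did not pass without replicate 2 of control, nor *ZNF688* without replicate 1 of sgUSP22 (−0.56). *ZNF511* was at −0.50 without replicate 2 of sgUSP22, under 1.5-fold. With the GC and length correction *ZNF688* (−0.32, adjusted p = 0.174 from edgeR) and *ZNF511* (−0.47) were not called, and with library size alone *ZNF688* was at −0.54.

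**Figure D2:**
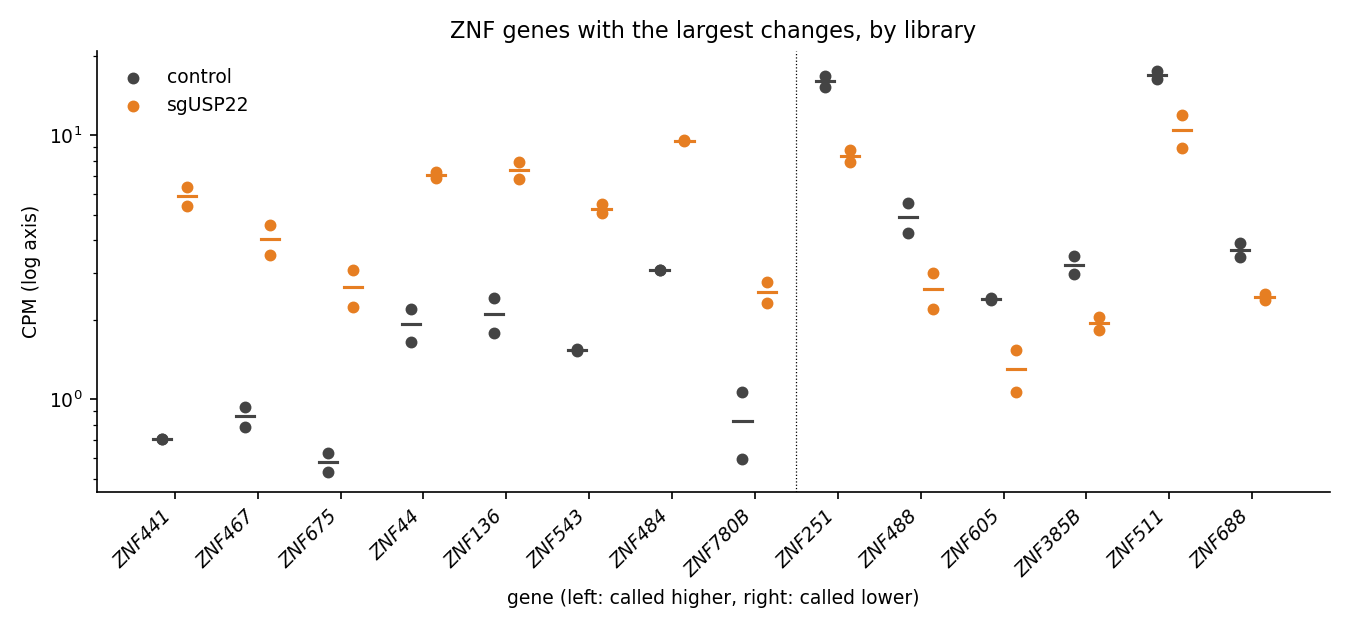
CPM with TMM factors on a log axis for the 8 ZNF genes with the highest fold changes and the 6 called lower, with 1 point for each library and a bar at the mean of each group of 2 libraries. Control and sgUSP22 points do not overlap in any of the 14 genes, and *ZNF441* shows the widest separation, from 0.705 CPM to 5.90 CPM.

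The 309 genes spanned a wide range of levels, with means over the 4 libraries from 1.59 to 226 CPM and a median of 11.1 CPM. The most abundant, *ZNF664*, had 13951 and 13745 counts in control and 14585 and 14929 in sgUSP22, and its log2 fold change of 0.01 did not pass the test (adjusted p = 0.802 from edgeR). *ZNF146*, whose product consists almost wholly of zinc fingers, had 9894 and 9708 counts against 13797 and 14007 (log2 fold change 0.43, adjusted p = 1.33e-05 from edgeR). *ZNF106*, an RNA-binding protein gene, had 8314 and 8720 counts against 10284 and 10363 (log2 fold change 0.20, adjusted p = 0.00146 from edgeR). *ZNF598*, the ubiquitin ligase that senses collided ribosomes, had 7614 and 7920 counts against 7685 and 7601 (log2 fold change −0.10, adjusted p = 0.0427 from edgeR). None of these 4 was called at 1.5-fold, and their directions differed. The change of *ZNF598* did not pass the test in any fit with a library left out (log2 fold changes from −0.11 to −0.09), and with the trends in GC content and length removed that of *ZNF106* was 0.00 and that of *ZNF598* 0.08. Per kilobase of transcript, which allows levels of different genes to be compared, *ZNF146* (55.6 CPM per kb), *ZNF664* (52.3), *ZNF622* (46.4) and *ZNF598* (36.1) were the highest, while *ZNF780B* (0.194), *ZNF605* (0.198) and *ZNF555* (0.215) were the lowest.

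The number of calls was largest among ZNF genes at low levels, which is in part set by the selection, and the difference between levels was not tested. In the third of the 309 genes with the lowest mean CPM, 37 were called higher and 4 lower with a median log2 fold change of 0.40. This group holds the 16 genes with a control mean under 100 counts, and its other 87 genes had 24 called higher. The genes in the middle of the range had 24 higher and 2 lower with a median of 0.23, and those with the highest CPM 13 higher and 0 lower with a median of 0.20. Large differences between the libraries of a group were rare. They exceeded 1.5-fold in 14 genes, of which 5 were called. The widest was that of *ZNF517*, with 122 and 254 counts in control and 179 and 173 in sgUSP22 (log2 fold change −0.17, adjusted p = 0.662 from edgeR). *ZNF684* had 208 and 351 counts in control and 354 and 377 in sgUSP22 (log2 fold change 0.31, adjusted p = 0.251 from edgeR). In both genes 1 of the control libraries stood apart, so neither difference between the groups exceeded the spread within control. The log2 fold change of *ZNF517* was −0.59 without replicate 1 of control and 0.43 without replicate 2, and that of *ZNF684* was −0.00 and 0.72.

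**Figure D3:**
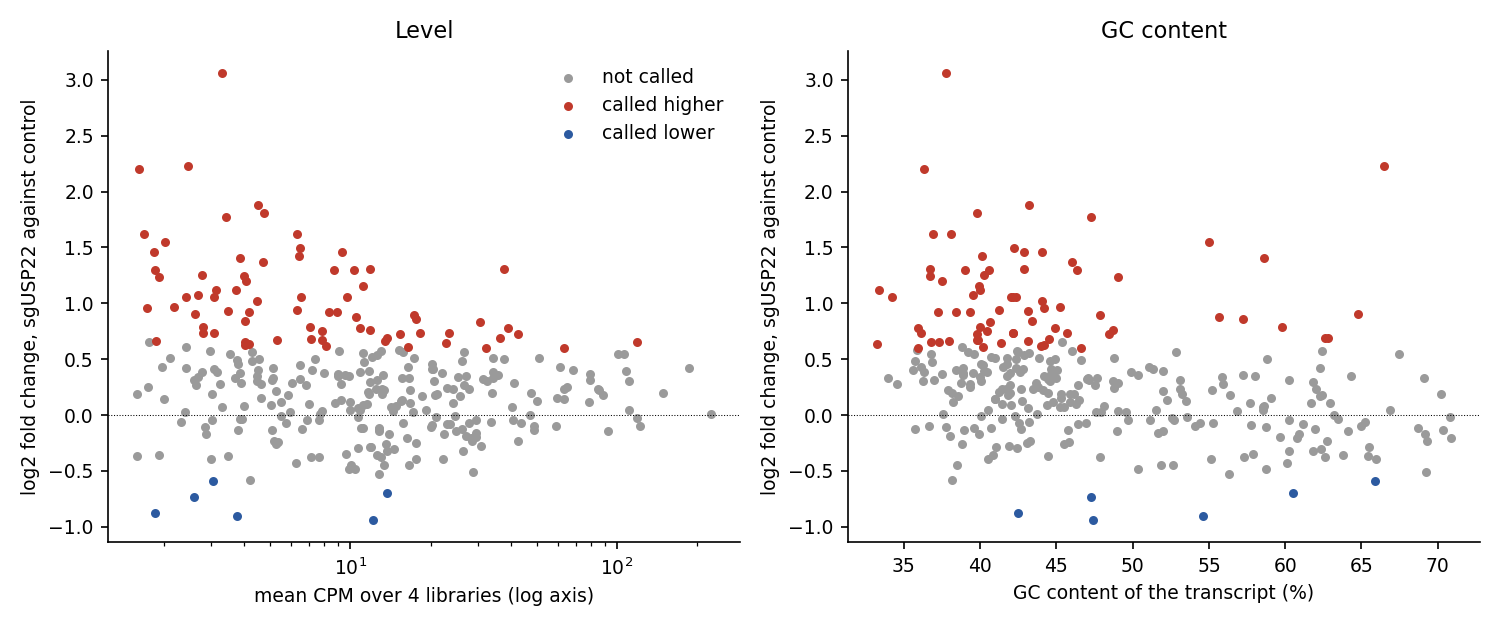
The log2 fold change (sgUSP22 against control) of ZNF genes against the mean CPM over 4 libraries (left, log axis) and against the GC content of the transcript in percent (right, 308 genes with a GENCODE transcript), with genes called higher in red and called lower in blue. The genes with the largest increases lie at low CPM and mostly at low GC content, with *ZNF467* at high GC content.

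The share of genes called higher was larger among ZNF genes with a KRAB box than among those without it, a difference that was not tested. The proteins encoded by 302 of the 309 genes could be read from GENCODE coding sequences, of which 164 matched the KRAB A box. Degenerate KRAB boxes are missed by this match, and GENCODE lists 3 of the 309 genes as pseudogenes and 3 as non-coding RNA genes. Of the 164 genes, 56 (34.1%) were called higher and 3 were called lower, with a median log2 fold change of 0.38. Of the 138 genes without a match, 18 (13.0%) were called higher and 3 lower, with a median of 0.18. The transcripts of the 2 classes also differed in base composition, with a median GC content of 43.1% with a KRAB match and 50.5% without. Their median levels were 6.90 CPM with a match and 17.5 CPM without. The SCAN domain, through which some zinc finger proteins pair, was matched in 20 genes. Of these, 1 (5.0%) was called higher, against 8.88% of all tested genes, and the median was 0.18.

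Calls by number of C2H2 fingers are given next; no trend was tested, and the median GC content was 53.2% in the genes with the fewest fingers and 42.5% in those with the most. Among the 60 genes with 0 to 4 fingers, 4 (6.67%) were called higher and 4 (6.67%) lower with a median log2 fold change of 0.01. These shares lay near the 8.88% and 7.25% of all tested genes. With 5 to 9 fingers, 19 of 95 were called higher and 0 lower (median 0.31), with 10 to 14 fingers 29 of 94 higher and 1 lower (median 0.34), and with 15 or more 22 of 53 higher and 1 lower (median 0.35). The called genes with the most fingers were *ZNF845*, with 26 fingers and 72 and 60 counts in control against 166 and 178 in sgUSP22, and *ZNF721*, with 23 fingers and 694 and 598 counts against 1029 and 1128. Their log2 fold changes were 1.30 and 0.66. *ZNF721* was not called without replicate 2 of control (0.54), without replicate 2 of sgUSP22 (0.58) or with the GC and length correction (0.43).

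Chromosome 19 carried 113 of the 308 ZNF genes with a position, and 46 of the 74 genes called higher. On this chromosome 40.7% of the ZNF genes were called higher and 0 lower, with a median log2 fold change of 0.48. DESeq2 also called 0 of them lower, while 9 of the 113 were lower at an unadjusted p-value below 0.05 from edgeR. The 836 other tested genes of chromosome 19 had a median of −0.19, with 5.86% called higher and 9.09% called lower, so the upward shift was not shared by the rest of the chromosome. Of the 195 ZNF genes on other chromosomes, 28 were called higher and 6 lower, with a median of 0.20. Elsewhere, 4 of 7 ZNF genes were called higher on chromosome 9, 6 of 26 on chromosome 16, 4 of 25 on chromosome 7 and 3 of 9 on chromosome 17. Of the other tested genes of these 4 chromosomes, 6.59% to 8.47% were called higher. By contrast, 0 ZNF genes were called higher on chromosomes 2, 5, 8, 11, 14, 15, 18 and 22. Among these were 0 of 14 on chromosome 8 and 0 of 8 on chromosome 18. On chromosome 1 it was 1 of 17 (5.88%), against 8.88% of all tested genes. No difference between these chromosomes was tested. The 4 of chromosome 9 were *ZNF484*, *ZNF79*, *ZNF189* and *ZNF510*. Of these *ZNF189* had 210 and 207 counts in control and 657 and 588 in sgUSP22 (2.83-fold, SE 0.131 on the log2 scale). *ZNF510* was not called with the GC and length correction (log2 fold change 0.53).

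KRAB zinc finger genes on chromosome 19 were the class with the highest share of calls. Among these 87 genes, 41 (47.1%) were called higher and 0 lower, with a median log2 fold change of 0.56. KRAB genes on other chromosomes had 15 of 77 called higher and 3 lower (median 0.27). ZNF genes without a KRAB match had 5 of 26 called higher and 0 lower on chromosome 19 (median 0.02, median GC content 62.1%), and 13 of 112 higher and 3 lower elsewhere (median 0.19). With per-library trends in GC content and transcript length removed, 33, 11, 6 and 12 genes of the 4 classes were called higher. The medians were then 0.40, 0.16, 0.14 and 0.11. The 4 classes also differed in level, with median CPM of 5.31, 9.64, 14.5 and 20.2. In the first class the share is in part set by the selection. Some of its called genes, *ZNF441*, *ZNF675* and *ZNF780B* among them, had a control mean under 100 counts. The classes were not recounted without such genes.

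Calls went with GC content in ZNF genes and in other genes, with more genes called higher at low than at high GC content in both. In the third of ZNF genes with the lowest GC content (33.2% to 41.9%), 36 of 102 (35.3%) were called higher and 0 lower, with a median log2 fold change of 0.43. The 3359 other tested genes in this range had 11.7% higher and 3.63% lower, with a median of 0.17. In the middle range (41.9% to 49.0%), 28 of 103 ZNF genes (27.2%) were higher and 3 lower (median 0.33), against 8.78% and 6.68% of the other genes (median 0.02). At 49.0% to 70.9%, 10 of 103 ZNF genes (9.71%) were higher and 3 lower (median 0.03), against 7.01% and 9.33% of the other genes (median −0.11). Before any correction, the share of ZNF genes called higher lay well above that of the other genes in the lower ranges. It lay close to it in the highest range. The part of GC content in the result was not tested beyond the correction that follows. With the trends in GC content and length removed, 62 ZNF genes were called higher (20.1%, against 8.10% of all genes) and 6 lower. Of these, 55 and 4 were the same genes as before, and the median log2 fold change was 0.19. From the lowest to the highest GC range, 19.6%, 25.2% and 15.5% of ZNF genes were then called higher. The medians were 0.18, 0.25 and 0.14, so the fall in the share from low to high GC content was no longer steady.

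The called genes of chromosome 19 were spread over most of its ZNF arrays. Neighbourhoods were built, after the values had been seen, by joining ZNF genes of the table whose starts lie within 500 kb, and those with at least 5 of the 309 genes were kept. Chromosome 19 had 8 of them, with 96 of the 309 genes and 38 of the genes called higher. The neighbourhood between 51.6 and 53.6 Mb had 8 of 11 genes called higher (*ZNF175*, *ZNF614*, *ZNF432*, *ZNF766*, *ZNF480*, *ZNF845*, *ZNF765* and *ZNF761*). Its 11 log2 fold changes were all above 0, from 0.28 to 1.30 with a median of 0.68. With the GC and length correction *ZNF175* (0.54), *ZNF766* (0.45) and *ZNF761* (0.51) were not called. *ZNF175* was also under 1.5-fold without replicate 1 of control (0.58). So was *ZNF766* without replicate 2 of control (0.57) and without replicate 1 of sgUSP22 (0.56). Between 43.5 and 44.5 Mb, 9 of 17 genes were called higher (*ZNF283*, *ZNF45*, *ZNF155*, *ZNF222*, *ZNF223*, *ZNF225*, *ZNF234*, *ZNF235* and *ZNF180*). Here the genes spread from −0.39 to 1.42 around a median of 0.66, so neighbours in 1 array did not all move alike. *ZNF180* at the top of that range had 231 and 199 counts in control and 622 and 595 in sgUSP22, and *ZNF45* had 305 and 314 against 720 and 891. *ZNF223* was not called in any of the 4 fits with a library left out, nor by DESeq2 (adjusted p = 0.148 from DESeq2). Nor were *ZNF222* without replicate 1 of sgUSP22 (0.65) and *ZNF235* without replicate 2 of sgUSP22 (0.63).

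The array between 11.5 and 12.6 Mb on the short arm held 3 of the 5 genes with the highest fold changes, *ZNF441*, *ZNF44* and *ZNF136*, and had the widest range of the 8 neighbourhoods. Of its 10 genes, 4 were called higher (*ZNF441*, *ZNF136*, *ZNF44* and *ZNF564*), and the log2 fold changes ran from −0.36 to 3.06 with a median of 0.40. The table lists 27 ZNF genes in this stretch, so most of the array was under the limit of 100 counts. Between 8.5 and 9.8 Mb, 4 of 10 genes were called higher (*ZNF558*, *ZNF266*, *ZNF426* and *ZNF121*; median 0.54), and between 19.7 and 24.1 Mb 3 of 6 (*ZNF431*, *ZNF675* and *ZNF254*; median 0.56), where the table lists 39 ZNF genes. *ZNF558* rose from 428 and 409 counts to 1103 and 1088 counts. With the GC and length correction *ZNF121* (0.48), *ZNF431* (0.54) and *ZNF254* (0.35) were not called. *ZNF266* was under 1.5-fold without replicate 2 of control (0.57). Towards the end of the long arm, between 57.2 and 58.5 Mb, 8 of 27 genes were called higher, with *ZNF543* at the top and a median of 0.36. In the array between 36.2 and 37.8 Mb, 1 of 6 genes was called higher (*ZNF566*, with an array median of 0.31). *ZNF566* was not called with the GC and length correction (0.39) and was under 1.5-fold without replicate 1 of control (0.51).

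The neighbourhood between 55.5 and 56.7 Mb differed from the others of the chromosome. Only 1 of its 9 genes, *ZNF784*, with 104 and 121 counts in control and 226 and 220 in sgUSP22, was called higher, and the median log2 fold change was −0.13. Its transcripts had a median GC content of 69.1%, against 37.0% to 44.9% in the other 7. On other chromosomes, the neighbourhood between 30.4 and 31.9 Mb of chromosome 16 held 4 genes called higher of 12 (*ZNF764*, *ZNF689*, *ZNF629* and *ZNF267*) beside *ZNF688*, which was called lower. Genes called higher and a gene called lower thus stood within the same stretch of sequence, but the lower call rests on *ZNF688* alone. *ZNF688* was not called by DESeq2, with the GC and length correction (−0.32) or with library size alone (−0.54). *ZNF267* was not called with the GC and length correction (0.55). Between 3.1 and 3.4 Mb of chromosome 16, *ZNF200* alone of 7 was called higher, from 290 and 322 counts to 880 and 899. Near the end of chromosome 7, between 149.1 and 149.9 Mb, *ZNF467* and *ZNF398* were called higher among 10 genes with a median of −0.06.

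Calls are also given for functional groups of ZNF genes, between which no difference was tested. Of 6 repressors of retrotransposons, *ZNF93*, which binds LINE-1 elements, *ZNF649* and *ZNF808* were listed at 0 in all 4 libraries. The other 3 were called higher, against 8.88% of all tested genes, but they are few and their counts have the limits given below. *ZNF587* and *ZNF417*, closely related neighbours whose products bind endogenous retroviruses of the HERV-K group, are the 2 of these among the 309 genes. *ZNF587* had 1830 and 1702 counts in control and 3084 and 3315 in sgUSP22 (log2 fold change 0.78, adjusted p = 1.18e-05 from edgeR). *ZNF417* had 138 and 226 counts against 363 and 414 (log2 fold change 1.02, adjusted p = 0.00289 from edgeR). Their separate counts are uncertain. Of the windows of 100 bases, 21.7% of those of *ZNF417* and 14.7% of those of *ZNF587* are found in other genes of the table. Each of these 2 genes shares the most windows with the other, and *ZNF587* overlaps exons of *ZNF814* on the opposite strand. *ZNF91*, the repressor of SVA elements, had only 4 and 0 counts in control and 19 and 16 in sgUSP22.

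Among 9 genes for proteins that act on RNA, ribosomes, ubiquitin or SUMO, 5 passed the test upwards and 2 downwards, 1 of the 9 was called at 1.5-fold, and the median log2 fold change was 0.24. These are 55.6% and 22.2% of the group, against 26.8% and 25.8% of all tested genes. The called gene was *ZNF451*, a SUMO ligase gene, with 5538 and 5847 counts in control and 9516 and 9421 in sgUSP22 (log2 fold change 0.66, adjusted p = 8.54e-07 from edgeR). With the GC and length correction its log2 fold change was 0.39, under 1.5-fold. It shares 1030 exon bases with *ZNF451-AS1* on the opposite strand. The lowest of the 9 was *ZNF593*, which acts in the making of the large ribosomal subunit, with 886 and 854 counts against 750 and 687 (log2 fold change −0.36, adjusted p = 0.0122 from edgeR), a change that did not pass without replicate 1 of control or replicate 2 of sgUSP22 (−0.31 in each fit) or with the GC and length correction (−0.07). *ZNF207*, a spindle assembly factor gene, and *ZNF638*, whose product works with the HUSH silencing complex, were named after their values were seen. *ZNF207* had 4977 and 5130 counts in control and 7872 and 7708 in sgUSP22, and *ZNF638* had 5586 and 5032 against 7897 and 8496. Both rose by a log2 fold change of 0.55 and remained under 1.5-fold.

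Among 20 tested transcription regulators that lack a KRAB box, 9 passed the test upwards and 1 downwards, with a median log2 fold change of 0.17. Over all tested genes 26.8% passed upwards and 25.8% downwards, and the 2 called higher are 10.0%, close to the 8.88% of all tested genes. *ZNF292*, a tumour suppressor gene linked to neurodevelopmental disorders, had 1298 and 1378 counts in control and 3427 and 3555 in sgUSP22 (log2 fold change 1.31, SE 0.0612, adjusted p = 2.25e-07 from edgeR). It combined a high count with a difference far larger than the spread between its libraries. With the GC and length correction its log2 fold change was 0.93. *ZNF644*, a partner of the histone methyltransferases G9a and GLP, had 3250 and 2959 counts against 4985 and 4943 (log2 fold change 0.60, adjusted p = 2.17e-05 from edgeR), which was under 1.5-fold without replicate 2 of control (0.52) and with the GC and length correction (0.31). The lowest was *ZNF592*, with 5768 and 6233 counts against 5784 and 5678 (log2 fold change −0.14, adjusted p = 0.0179 from edgeR), which did not pass without replicate 2 of control (−0.10) or replicate 2 of sgUSP22 (−0.15). In 8 tested KRAB or SCAN regulators of known sites, 7 of them among the 309 genes, edgeR and DESeq2 each called 0, while 2 had an unadjusted p-value below 0.05 from edgeR, and the median was 0.02. Of these, *ZNF394* was the highest among the 309 genes (803 and 760 counts against 1224 and 1217, log2 fold change 0.56) and *ZNF444* the lowest (768 and 882 against 801 and 805, log2 fold change −0.12, adjusted p = 0.363 from edgeR). *ZNF274*, which brings SETDB1 to the ends of other zinc finger genes, was looked at after the values were seen, and had 902 and 942 counts in control and 1070 and 1070 in sgUSP22, a log2 fold change of 0.14 that did not pass the test (adjusted p = 0.215 from edgeR).

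The machinery through which KRAB zinc finger proteins silence their sites showed no shift in 1 direction. Of 35 tested genes, 13 passed the test upwards and 14 downwards, with a median log2 fold change of −0.05. Over all tested genes these shares were lower, at 26.8% and 25.8%. At 1.5-fold, 1 of the 35 (2.86%) was called higher and 1 (2.86%) lower, against 8.88% and 7.25% of all tested genes. *SUV39H2*, a histone H3 lysine methyltransferase gene, had 888 and 907 counts in control and 1524 and 1527 in sgUSP22 (log2 fold change 0.69, adjusted p = 7.02e-05 from edgeR), and 0.51 with the GC and length correction, under 1.5-fold. *DNMT3B*, a de novo DNA methyltransferase gene, had 472 and 498 counts against 326 and 303 (log2 fold change −0.70, adjusted p = 0.00108 from edgeR). *TRIM28*, the corepressor itself, was chosen after the values were seen and had 16300 and 17434 counts in control and 16626 and 15541 in sgUSP22, a log2 fold change of −0.15 (adjusted p = 0.0109 from edgeR). The genes of the HUSH complex, also chosen afterwards, were split, with log2 fold changes of 0.41 for *TASOR*, 0.45 for *MPHOSPH8* and −0.12 for *PPHLN1*.

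Other families of zinc finger genes, chosen by symbol with the same limit of 100 counts, are given beside the ZNF genes. Of 15 ZSCAN genes 6 were called higher and 0 lower, with a median log2 fold change of 0.47. Among 38 ZBTB genes 5 were called higher and 2 lower (median 0.28), among 6 ZKSCAN genes 1 higher and 0 lower (median 0.28), and among 15 ZC3H genes 3 higher and 0 lower (median 0.24). The medians were 0.13 for 10 ZFP genes, of which 1 was called higher and 1 lower, −0.04 for 18 ZDHHC genes, of which 2 were called higher, and −0.11 for 14 KLF genes, of which 1 was called higher and 2 lower. For comparison, 8.88% of all tested genes were called higher and 7.25% were called lower. The difference between families was not tested, nor was that of any family from these shares.

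Some ZNF genes share sequence or position with other genes, which the counting could have divided or added. At least 1 window of 100 transcript bases was shared with another gene of the table in 47 of the 309 genes, and over 20% of the windows in 5 (*ZNF417*, *ZNF324*, *ZNF286A*, *ZNF286B* and *ZNF395*). Exons of 89 genes overlapped those of another gene, in 62 on the opposite strand. Among the 195 genes with neither, 46 were called higher and 4 lower, with a median log2 fold change of 0.27.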

How the data were processed

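PolyA RNA of 4 libraries was sequenced, 2 of control and 2 of sgUSP22 HepG2 cells. For these, the authors used HISAT2 2.2.1 to align reads to hg38, and deposited whole-number gene counts from StringTie 2.2.1, which were not divided by library size. The submitters' processing notes also name DESeq2 1.34.0. The annotation, strand setting and read length behind the counts are not given in the sources used here. StringTie derives counts from coverage, so low counts carry the largest error and a 0 means that a gene is listed at 0.

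Counts were tested in R 4.3.3 with edgeR 4.0.16 on the whole table (TMM factors, filterByExpr with a minimum count of 10, quasi-likelihood test, Benjamini-Hochberg adjustment over 15150 genes). The SE was obtained from the fold change on the log2 scale and the F statistic (its size over the root of F). DESeq2 1.42.0 with independent filtering at 0.1 was an alternative, and both were tested on simulated data. Positions, GC content, transcript lengths and coding sequences came from GENCODE 44, which matched 26182 of 28278 symbols and 308 of the 309 ZNF genes, by the canonical transcript. C2H2 fingers were matched by their cysteine and histidine spacing, KRAB A boxes with at most 3 and SCAN domains with at most 2 mismatches. Promoters came from RefSeq (GRCh38.p14).

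The ZNF genes, gene lists, tests and alternatives were chosen with earlier results of these data known. Named genes are the 8 highest and up to 8 lowest log2 fold changes among called ZNF genes (only 6 were called lower), the 4 highest in CPM, the 3 with the largest ratio between libraries of a group, 3 on each side of the count limit, the highest and lowest of each list, the called corepressors and *USP22*. Genes named for a class, chromosome or neighbourhood were chosen with their values in view, and so were the neighbourhoods, the GC ranges and the checks of shared sequence.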

Additional observations from a re-analysis of the deposited data

How the results depend on the processing

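The 74 ZNF genes called higher, the 6 called lower, their median log2 fold change of 0.28, the 41 KRAB genes of chromosome 19 called higher and the 2 corepressor genes called were recomputed under each alternative. RLE factors, no filter on low counts and a mean of at least 50 counts gave these same 5 values. Replicate numbers are shared by the groups, but same-numbered libraries did not deviate together (correlation 0.042), and the fit with the replicate block also called 74 higher and 6 lower with a median of 0.28. DESeq2 called 73 higher, all among the 74, and 3 lower. With library size alone 88 were higher and 5 lower and the median was 0.33, while the median over all genes moved to 0.053. Removing trends in GC content and length gave 62 higher, 6 lower, a median of 0.19 and 1 corepressor gene. Testing against a 1.5-fold change left 35 higher, 1 lower, 21 KRAB genes of chromosome 19 and 0 corepressor genes, and 3.82% of all genes higher and 2.83% lower. With no fold threshold these were 147, 34, 58 and 27. A limit of 50 counts gave 85 higher, 8 lower and a median of 0.30 over 334 genes, and a limit of 200 counts gave 56, 3 and 0.24 over 265 genes. The alternatives added after the data were seen were a mean of at least 100 counts in both groups, with 61 higher, 5 lower and a median of 0.27, and genes with no shared sequence or exon overlap, with 46 higher, 4 lower and a median of 0.27. With 1 library left out, where the lone library is assumed to vary like the others, 68 to 80 were called higher, 4 to 8 lower, the median was 0.25 to 0.28, 35 to 43 KRAB genes of chromosome 19 were higher and 2 to 3 corepressor genes were called. Among the 36 named genes, 239 of 252 comparisons with other settings kept their direction and their side of the adjusted p threshold, whatever the size of the fold, 10 no longer passed it and 3 changed sign, all with the GC and length correction: *ZNF664* (−0.07), *ZNF598* (0.08) and *ZNF444* (0.14). With 1 library left out, 123 of 144 kept both, 14 no longer passed, 3 newly passed and 4 changed sign, at log2 fold changes from −0.02 to 0.04 for *ZNF664* (below 0 without replicate 2 of either group), from −0.59 to 0.43 for *ZNF517* (above 0 without replicate 2 of control) and from −0.00 to 0.72 for *ZNF684* (at 0 without replicate 1 of control). The fewer calls against 1.5-fold follow from the stricter test, and the cause of the other changes was not tested. Low counts limit the precision, with an SE of 0.307 for *ZNF780B* at a mean near 100 counts and 0.0612 for *ZNF292* at over 1000.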

Other observations

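ZSCAN genes, which encode zinc finger proteins with a SCAN domain and mostly lack the ZNF symbol, were described in the report by their counts alone. *ZSCAN22* had 143 and 65 counts in control and 432 and 398 in sgUSP22, a log2 fold change of 1.91 (SE 0.298, adjusted p = 0.000439 from edgeR). *ZSCAN32* had 265 and 302 counts against 819 and 741, a log2 fold change of 1.38 (SE 0.122, adjusted p = 1.08e-05 from edgeR). *ZSCAN16*, *ZSCAN20* and *ZSCAN31* were higher by log2 fold changes of 1.07, 1.14 and 1.08, and *ZSCAN25* by 0.71. In the ZBTB family, whose members pair a BTB domain with zinc fingers, *ZBTB9* had 289 and 237 counts in control and 867 and 841 in sgUSP22 (log2 fold change 1.62, SE 0.133), and *ZBTB6* had 934 and 932 against 2156 and 2169 (log2 fold change 1.13, SE 0.074). *ZBTB18*, a transcriptional repressor gene, went the other way, with 850 and 851 counts against 248 and 231 (log2 fold change −1.91, SE 0.115, adjusted p = 1.01e-06 from edgeR). *KLF6* and *KLF10*, growth-restraining Krüppel-like factor genes, had 9039 and 10098 counts against 5797 and 5517, and 11273 and 11374 against 7102 and 7081 (log2 fold changes −0.84 and −0.75). These genes were named after their values were seen.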
